A study of Sus scrofa with 6 samples.

Results

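The genes described here are 10 members of a group built around the CCN matricellular proteins and other genes that answer to mechanical load and to the coactivators YAP and TAZ. They are CCN1, CCN2, CCN3, CCN5, THBS1, ANKRD1, ANKRD2, CSRP3, YAP1 and WWTR1. Each was looked up by its current pig symbol among the 25322 Ensembl gene IDs of the deposited table, and 8 of the 10 had a row. The IDs paired with YAP1 and CCN5 matched no row, and these genes are not analysed here. The group was drawn up with the levels in these libraries and their difference between altitudes already known, so the members' own differences are described and not tested.

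The samples are longissimus dorsi, a long back muscle, from 6 healthy female Tibetan pigs, with 1 library per animal. The low altitude group was 3 animals kept with daily feeding under experimental conditions on the Chengdu plain at an average of 500 m, from a line raised in the lowland for generations. The high altitude group was 3 animals that ranged freely in the Tibetan highland at an average of 4000 m. Place, husbandry, feeding and line history differed together with altitude and cannot be told apart from it, and the labels give neither the time of day nor the animals' activity at sampling. Values are FPKM, fragment numbers scaled by the length of the gene and by the size of the library, so levels of different genes can be set side by side.

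CCN proteins are secreted, cysteine-rich proteins that sit in the matrix, bind integrins and growth factors, and signal back to cells. Of their genes, CCN1 and CCN2 are classical targets of YAP and TAZ, coactivators that the Hippo kinases hold in the cytoplasm. YAP and TAZ enter the nucleus, where they bind TEAD factors, when cells are stretched, spread or given growth factors. Muscle fibres have load sensors of their own in the sarcomere, among them the ankyrin repeat proteins of the titin spring and the muscle LIM protein of the Z-disc. Transcripts of CCN1 and THBS1 also appear quickly and briefly after serum, growth factors or stress, as those of immediate early genes do.

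The FPKM total per library lay between 506611 and 566907 at low altitude and between 526368 and 571855 at high altitude, and 9278 to 10100 genes per library reached an FPKM of 1. Absolute depth is unknown, and relative depths read from the spacing of low values ran from 0.878 to 1.00 at low altitude and from 0.855 to 1.22 at high altitude. Muscle markers were high, with MYL1, a light chain of fast myosin, at 10100 to 10597 FPKM at low and 10408 to 11850 at high altitude, while CKM, MB, MYH1, MYH2 and TTN matched no row and are not used here. The skeletal actin ACTA1 was listed at 0 in 4 libraries and at 35618 FPKM in low altitude library 3 and 34168 in high altitude library 2, so a value of 0 here can be a failed estimate. It is among 107 genes listed at 0 in at least 1 library and at 5 or more in another. None of the 8 members is among them. High altitude library 1 stood apart, with the highest summed slow fibre and the lowest summed fibroblast marker levels of the 6. Not every marker followed its sum. The slow fibre marker MYL3 was highest in high altitude library 3. Of the fibroblast markers, PDGFRA was lowest in low altitude library 3 and FBLN1 in low altitude library 1. The members' fold changes that move most without high altitude library 1 are given both ways.

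At low altitude the mean levels ran from ANKRD1 (70.3 ± 27.9 FPKM, SD, n = 3) and CSRP3 (68.5 ± 7.05) through ANKRD2 (42.1 ± 7.62), CCN1 (39.7 ± 19.3), THBS1 (14.2 ± 8.05), CCN2 (11.5 ± 3.41) and WWTR1 (5.49 ± 1.81) to CCN3 (2.84 ± 1.12). At high altitude the order was CSRP3 (417 ± 487 FPKM), ANKRD1 (95.5 ± 116), ANKRD2 (66.6 ± 44.7), CCN2 (10.03 ± 1.25), WWTR1 (5.22 ± 1.20), CCN1 (5.07 ± 2.38), THBS1 (4.22 ± 2.22) and CCN3 (2.77 ± 1.07). Of neighbours in the low altitude order, the ranges of ANKRD1 and CSRP3 overlapped, as did those of ANKRD2 and CCN1, of CCN1 and THBS1, barely, and of THBS1 and CCN2. Of neighbours in the high altitude order, CSRP3 overlapped with ANKRD1, ANKRD1 with ANKRD2, WWTR1 with CCN1, CCN1 with THBS1, and THBS1 with CCN3. CCN1 thus stood above CCN2 in every low altitude library and below it in every high altitude library.

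**Figure D1:**
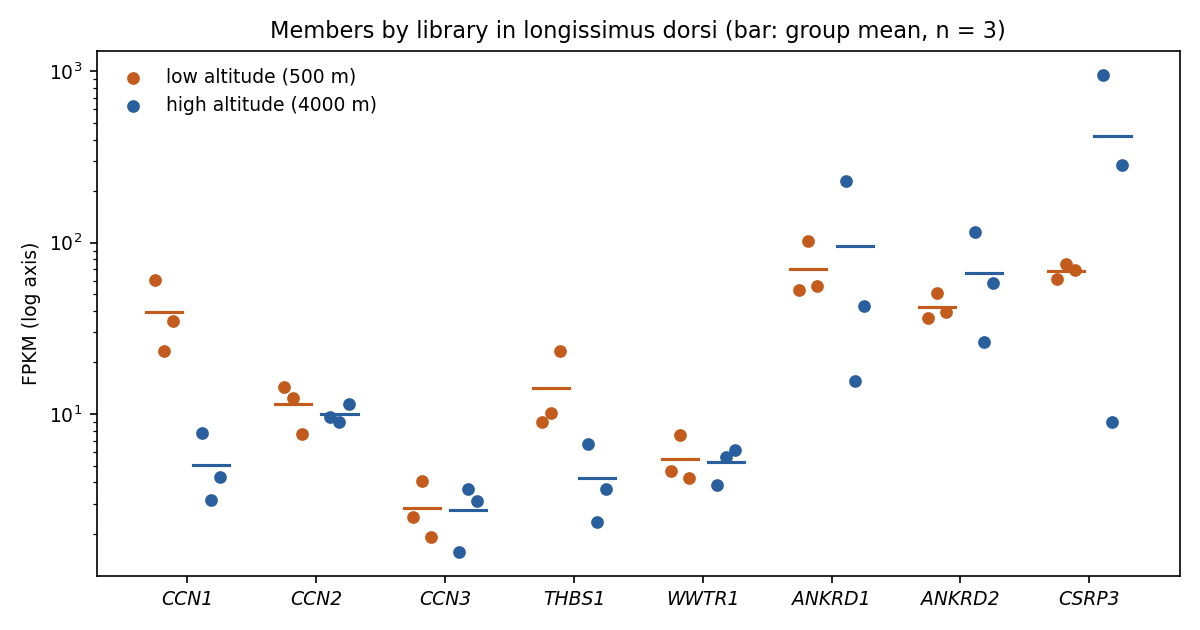
FPKM on a log axis of the 8 members in each library, with low altitude to the left of high altitude for each gene and a bar at the group mean of 3. CCN1 and THBS1 do not overlap between the groups, while CSRP3 spreads from 9.02 to 957 FPKM within the high altitude group.

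CCN1, the matricellular protein also known as CYR61, which acts on vessels and on matrix turnover during repair, was at 60.9, 23.3 and 34.8 FPKM in low altitude libraries 1 to 3, against 7.74, 3.17 and 4.31 in high altitude libraries 1 to 3. The groups do not overlap, and the lowest low altitude value is 3.01 times the highest high altitude value. The ratio of the group means was 7.82, with low altitude higher, and the fitted difference of low minus high altitude in log2(FPKM + 1), called the log2 fold change here and smaller than the true change for low genes, was 2.71 with an SE of 0.39. Within a group the highest animal was 2.62 times the lowest at low altitude and 2.44 times at high altitude. Among the tested genes of its own library CCN1 stood between the 84.8th and the 93.9th percentile at low altitude and between the 37.5th and the 68.6th at high altitude. The fold change ran from 2.35 without low altitude library 1 to 3.02 without low altitude library 2, and was 3.0 without high altitude library 1.

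THBS1 encodes thrombospondin 1, a large matrix protein that activates latent TGF beta and restrains vessel growth. It was at 8.98, 10.1 and 23.5 FPKM in low altitude libraries 1 to 3, against 6.68, 2.34 and 3.65 in high altitude libraries 1 to 3. The groups do not overlap, but narrowly, since the lowest low altitude value was 1.35 times the highest high altitude value. The ratio of means was 3.36 and the fitted log2 fold change 1.5 (SE 0.42), which was 1.10 without low altitude library 3, the highest library, and 1.82 without high altitude library 1. CCN1 and THBS1 peaked in different animals at low altitude, CCN1 in library 1 and THBS1 in library 3, and the ratio of CCN1 to THBS1 was 6.78, 2.30 and 1.48 there, against 1.16, 1.35 and 1.18 at high altitude.

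CCN2, known as connective tissue growth factor and as a partner of TGF beta in fibrosis, was at 14.3, 12.3 and 7.69 FPKM in low altitude libraries 1 to 3, against 9.67, 9.0 and 11.4 in high altitude libraries 1 to 3. The lowest library and the highest library were both at low altitude, and the fitted log2 fold change was 0.14 (SE 0.23). It was −0.03 without low altitude library 1. CCN3, which in other tissues counters CCN2, was at 2.51, 4.08 and 1.92 FPKM at low altitude, against 1.57, 3.63 and 3.12 at high altitude. Its groups overlap over most of their range, with a log2 fold change of 0.03 (SE 0.28), whose sign turned in 5 of 16 alternative analyses. CCN4 and CCN6, the family members outside the group, were too low to test, at 0.0695 to 0.246 and 0.0372 to 0.0411 FPKM at low altitude, against 0 to 0.0659 and 0 to 0.0856 at high altitude.

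The contrast between CCN1 and CCN2 does not depend on how libraries were scaled, because it can be read within each library. The ratio of CCN1 to CCN2 FPKM was 4.25, 1.89 and 4.52 in low altitude libraries 1 to 3, against 0.800, 0.352 and 0.377 in high altitude libraries 1 to 3. Every low altitude library lies above 1 and every high altitude library below it. The same ratio to CCN3 was 24.3, 5.70 and 18.1 at low altitude, against 4.92, 0.873 and 1.38 at high altitude, without overlap. This ratio uses the same CCN1 values, so it is not a separate result. A ratio shows unequal change of the 2 genes and not which of them moved.

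WWTR1 encodes TAZ, the coactivator that shares its TEAD partners and many targets with YAP. It was at 4.64, 7.56 and 4.26 FPKM in low altitude libraries 1 to 3, against 3.87, 5.61 and 6.17 in high altitude libraries 1 to 3. The highest library was at low and the lowest at high altitude, with overlap between them, and the log2 fold change was 0.05 (SE 0.24), with its sign turned in 5 of 17 alternatives. The transcript says nothing of how much TAZ protein was in the nucleus, which is where the pathway is regulated.

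**Figure D2:**
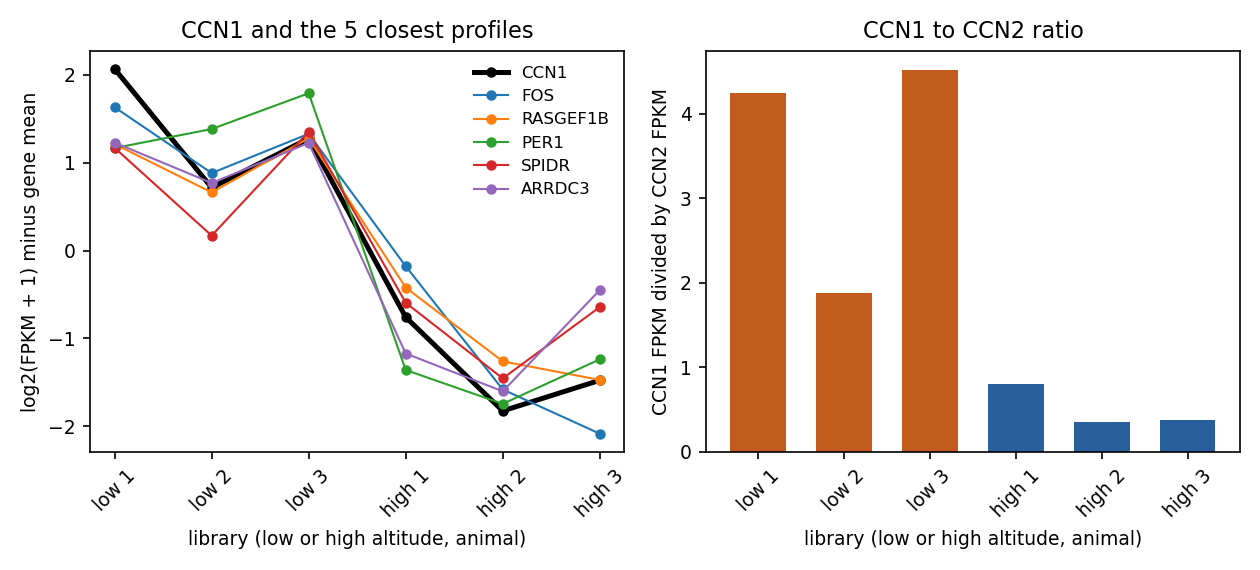
Left, log2(FPKM + 1) minus the gene mean in each library for CCN1 (black) and the 5 genes closest to it, where lines only join the values of 1 gene. Right, CCN1 FPKM divided by CCN2 FPKM in each library, which is 1.89 to 4.52 in the 3 low altitude libraries and 0.352 to 0.800 in the 3 high altitude libraries.

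In whole muscle, fewer cells of a type and less RNA per cell cannot be told apart. Marker levels of endothelium, fibroblasts, and smooth muscle with pericytes were therefore read beside CCN1 and THBS1. Which cells made these transcripts was not tested. Of 10 endothelial markers 6 had a row, and their summed level was 53.6 to 73.7 FPKM at low and 43.2 to 76.5 at high altitude. PECAM1 was the largest term of this sum in every library, at 31.0 to 42.0 FPKM at low and 19.8 to 37.8 at high altitude. Of 9 fibroblast markers 7 had a row, summing to 700 to 1086 FPKM at low and 258 to 976 at high altitude, and of 9 smooth muscle and pericyte markers 8 had a row, summing to 119 to 133 and 89.4 to 135 FPKM. These sums overlap between the groups. Within the endothelial list KDR, the main VEGF receptor, did not, at 1.90, 4.75 and 1.97 FPKM at low altitude, against 5.74, 7.69 and 7.22 at high altitude. None of the 3 lists has a marker listed at 0. CCN1 amounted to 108, 31.6 and 64.9% of the endothelial sum in low altitude libraries 1 to 3, against 17.9, 4.22 and 5.63% in high altitude libraries 1 to 3, so those groups do not overlap either. Relative to the fibroblast sum they do overlap, at 6.12, 2.14 and 4.97% against 3.0, 0.325 and 0.498%, since high altitude library 1 had the lowest fibroblast sum of the 6. The matrix genes COL3A1 and DCN were the largest terms of that sum. COL3A1 was at 554, 568 and 345 FPKM at low altitude, against 37.9, 528 and 453 at high altitude.

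THBS1 was at 16.0, 13.7 and 43.8% of the endothelial sum at low altitude, against 15.5, 3.12 and 4.77% at high altitude, and here high altitude library 1 falls inside the low altitude range. Low altitude library 3, the highest for THBS1, also had the highest summed level of 6 macrophage markers with a row out of 9, at 76.9 FPKM. The other 2 low altitude libraries had 31.7 and 40.1 FPKM and the high altitude libraries 39.3 to 55.0 FPKM. Among these CSF1R was listed at 0 in high altitude library 2. The part of macrophages in the THBS1 value was not tested.

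In each of the 3 sarcomere genes the altitude groups overlapped. CSRP3, the muscle LIM protein that anchors stretch signalling at the Z-disc and is enriched in slow fibres, was at 61.2, 75.3 and 69.0 FPKM in low altitude libraries 1 to 3, against 957, 9.02 and 286 in high altitude libraries 1 to 3. The low altitude animals lie within a 1.23-fold range, while the high altitude animals span 106-fold and lie on either side of them. The fitted log2 fold change of −1.02 (SE 1.48) was 0.37 without high altitude library 1 and −2.92 without high altitude library 2, so its sign and size depend on which animals are included.

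ANKRD1, the ankyrin repeat protein that joins the titin spring and moves to the nucleus under stretch, and a common YAP target, was at 52.7, 102 and 55.8 FPKM in low altitude libraries 1 to 3, against 228, 15.5 and 42.5 in high altitude libraries 1 to 3. High altitude library 1 is the highest and high altitude library 2 the lowest of the 6, a range of 14.7-fold in that group against 1.94-fold at low altitude. The log2 fold change was 0.31 (SE 0.87), 1.34 without high altitude library 1 and −0.55 without high altitude library 2. ANKRD2, its relative that is enriched in slow fibres and responds to stretch, was at 36.3, 50.7 and 39.2 FPKM at low altitude, against 115, 26.5 and 58.5 at high altitude. Its spread was 1.40-fold at low and 4.33-fold at high altitude, with a log2 fold change of −0.43 (SE 0.48) that became 0.08 without high altitude library 1. ANKRD23, the remaining ankyrin repeat protein of the titin spring, was named after its values were seen and was the most abundant of this family, at 578, 717 and 702 FPKM against 574, 340 and 679.

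Part of this order between animals was shared with slow fibre markers. Only 4 of 10 slow fibre markers had a row, and none was listed at 0. Their summed level was 3126, 4707 and 3106 FPKM in low altitude libraries 1 to 3, against 10493, 2751 and 6874 in high altitude libraries 1 to 3. TNNC1, the troponin C of slow and cardiac muscle, was at 1219, 1806 and 1228 FPKM against 4891, 952 and 2609. High altitude library 1 is the highest and high altitude library 2 the lowest in CSRP3, ANKRD1, ANKRD2 and this sum, and library 2 is the highest of the low altitude group in all 4. Of the markers, TNNC1, TNNI1 and TNNT1 have the same highest and lowest library, while MYL3 does not. MYL3 was at 469, 672 and 440 FPKM at low altitude, against 1190, 627 and 1293 at high altitude.

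ANKRD2 kept close to the slow fibre sum, at 1.16, 1.08 and 1.26% of it at low altitude, against 1.09, 0.964 and 0.851% at high altitude. CSRP3 did not, at 1.96, 1.60 and 2.22% at low altitude, against 9.12, 0.328 and 4.16% at high altitude, on either side of the low altitude range. ANKRD1 was at 1.69, 2.18 and 1.80% at low altitude, against 2.18, 0.564 and 0.619% at high altitude. Set against slow fibre markers, high altitude library 1 was thus within the low altitude range for ANKRD2, level with its top for ANKRD1 and above it for CSRP3. The part of fibre makeup in these 3 genes was not tested beyond these values.

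**Figure D3:**
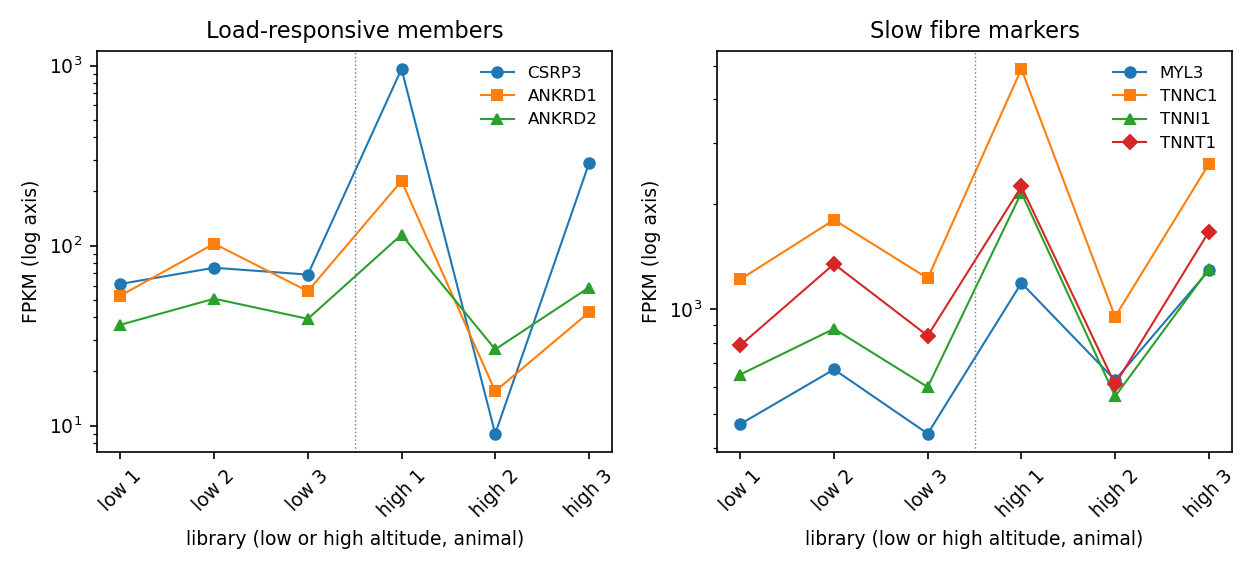
FPKM on log axes of CSRP3, ANKRD1 and ANKRD2 (left) and of the 4 slow fibre markers with a row (right) in each library, where lines only join the values of 1 gene. High altitude library 1 is high and high altitude library 2 low in all 3 members, and the low altitude libraries lie close together.

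The members were also located in the comparison of all genes, fitted with limma on log2(FPKM + 1) over the 10005 genes that reached an FPKM of 1 in 3 or more libraries, a filter that all 8 members passed. With Benjamini-Hochberg adjustment over all genes, 0 of the 8 members passed 0.05 in limma, where 0.23% of all tested genes did, and 2 had an unadjusted p under 0.05, CCN1 and THBS1, where 9.42% of all tested genes did. Their adjusted p values in limma ran from 0.0746 for CCN1 and 0.332 for THBS1 to 0.985 for CCN3. In 2 of 8 members the low altitude libraries all lay above the high altitude ones, and in 0 below, where 11.3 and 4.8% of all tested genes did. The members' median log2 fold change was 0.09, beside 0.041 over all tested genes. Since this comparison was known when the group was drawn up, these figures place the members and test nothing. CCN1 was past the threshold in 3 of 17 alternatives, with rescaling to a common total, with array weights and with the replicate numbers as a block. Each has a limit. The total includes ACTA1, whose values of 0 can be failed estimates. The lowest array weight, 0.318, fell on high altitude library 1, the highest of its group for CCN1. The replicate numbers are not taken as pairs here.

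The rest of the pathway was read from 10 lists set up by role, with 145 genes, of which 110 had a row and 98 were tested. These lists, too, were chosen with earlier results of these data known, so their counts describe the genes and test nothing. Of the tested genes, EGR1, TGFB2 and AMOTL2 stand on more than 1 list. In limma with Benjamini-Hochberg adjustment over all genes, 1 of the 98 was higher at low altitude and 0 were lower, where 0.16 and 0.07% of all tested genes were. The gene past the threshold was NR4A2, from the list of immediate early genes. All its high altitude values were under an FPKM of 1. It therefore passed the filter only through the low altitude group, where it is high. Over the 98 genes the median log2 fold change was 0.08, and 69.4% had an estimate above 0, beside 57.7% of all tested genes. Low altitude lay wholly above in 16 of the 98 genes and wholly below in 1, where 11.3 and 4.8% of all tested genes did. Of these 16 genes, 8 were immediate early genes. That list held 12 of the 98 genes, all 12 with estimates above 0, so the pooled counts do not describe every list.

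**Figure D4:**
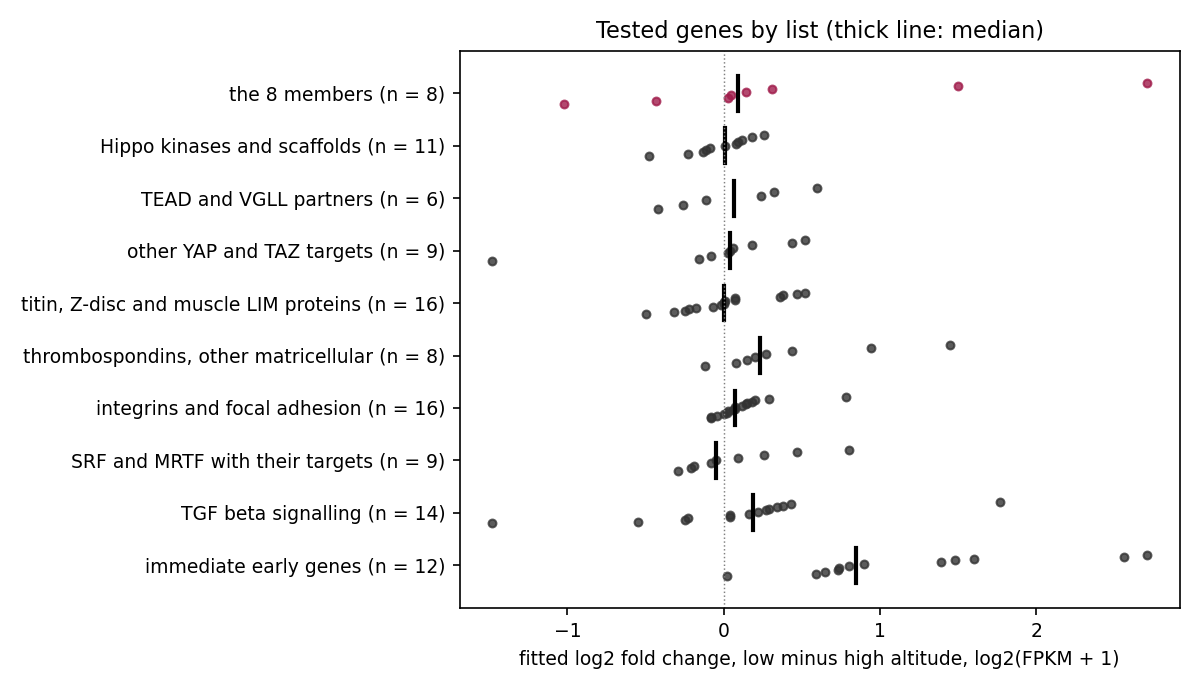
Fitted log2 fold change, low minus high altitude, of each tested gene in the 9 lists with tested genes and of the 8 members, with a thick line at the median. The medians lie between −0.05 and 0.24 for 8 lists and at 0.85 for immediate early genes, and the members run from −1.02 (CSRP3) to 2.71 (CCN1).

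The Hippo kinases and scaffolds, which phosphorylate or tether YAP and TAZ, had log2 fold changes of −0.48 to 0.26 with a median of 0.01. Of 11 tested genes 0 passed in limma and 0 had an unadjusted p under 0.05. AMOT, a scaffold that holds YAP in the cytoplasm, was the most abundant of them, at 33, 51.4 and 24.2 FPKM at low altitude, against 67.1, 36.4 and 47.0 at high altitude. MAP4K4, a kinase upstream of the core, was at 5.48, 7.30 and 5.30 against 2.89, 5.68 and 6.63 FPKM, and WWC2 and AMOTL2 likewise overlapped between the groups. Of the 6 tested TEAD and VGLL partners 0 passed and 0 had an unadjusted p under 0.05 in limma. TEAD1, the TEAD factor with the highest level here, was at 40.4, 39.5 and 34.3 FPKM at low altitude, against 34.5, 23.8 and 33.5 at high altitude, with a single high altitude library inside the low altitude range. VGLL4, a repressor that competes with YAP for TEAD, was at 9.25, 6.24 and 9.45 FPKM against 3.17, 8.03 and 4.94, and TEAD2 and TEAD3 overlapped as well.

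Of 19 other genes commonly used as YAP and TAZ targets 11 had a row and 9 were tested, of which 0 passed in limma and 1 had an unadjusted p under 0.05, with a median log2 fold change of 0.04. That gene was FJX1, a target of YAP, at 1.07, 2.16 and 1.22 FPKM at low altitude, against 0.545, 0.619 and 0.944 at high altitude (log2 fold change 0.52, SE 0.20, limma, Benjamini-Hochberg adjusted p = 0.477). FJX1 passed the FPKM filter only through the low altitude group, where it is higher. AMOTL2, which YAP induces and which in turn restrains it, was at 2.86, 2.30 and 2.16 FPKM against 1.71, 2.11 and 2.32. CRIM1, which binds growth factors at the cell surface, was at 5.35, 4.77 and 4.30 FPKM against 6.10, 5.29 and 5.06. TGFB2, a ligand of the TGF beta family, was at 13.7, 115 and 23.4 FPKM at low altitude, against 96.2, 84.1 and 108 at high altitude, with low altitude library 2 above all others. Its log2 fold change was −1.48 (SE 0.69, limma, Benjamini-Hochberg adjusted p = 0.563), and without low altitude library 2 it was −2.35 (adjusted p = 0.0498).

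Of 16 tested titin, Z-disc and muscle LIM genes 0 passed in limma and 1 had an unadjusted p under 0.05, and their median log2 fold change was 0.00. That gene was CAPN3, a protease bound to titin, at 167, 170 and 171 FPKM at low altitude, against 139, 118 and 139 at high altitude (log2 fold change 0.36, SE 0.14, limma, Benjamini-Hochberg adjusted p = 0.479). The groups do not overlap, and the low altitude animals lie close together. TCAP, the cap of titin at the Z-disc and a partner of CSRP3, was at 826, 680 and 822 FPKM against 1690, 805 and 954, with its highest value in high altitude library 1 as for CSRP3. FLNC, a filamin of the Z-disc, was at 145, 155 and 191 FPKM against 184, 81.4 and 108, and NRAP, which links actin to the membrane, at 113, 105 and 101 against 120, 53.1 and 63.5. In both, high altitude library 2 was the lowest of the 6, as it was for the 3 load-responsive members.

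Among matricellular proteins and thrombospondins other than the members, 8 of 11 were tested, 0 passed in limma and 1 had an unadjusted p under 0.05, and the median log2 fold change was 0.24. POSTN, a matrix protein of fibroblasts, was at 9.37, 11.1 and 4.0 FPKM at low altitude, against 0.817, 5.55 and 1.59 at high altitude (log2 fold change 1.45, SE 0.52, limma, Benjamini-Hochberg adjusted p = 0.453). Its groups overlap, and its log2 fold change was 1.06 without high altitude library 1 and 1.98 without high altitude library 2. SPARC, a collagen-binding matrix protein, was at 369, 457 and 276 FPKM against 54.4, 336 and 352. Its low value was in high altitude library 1, which also had the lowest fibroblast sum. Its log2 fold change was 0.94 (SE 0.69), and 0.07 without that library. THBS3 and THBS4, relatives of THBS1, were at 2.08, 2.38 and 1.88 FPKM against 1.49, 1.68 and 1.94, and at 3.20, 5.33 and 3.16 FPKM against 4.82, 1.66 and 3.05. Both overlap between the groups.

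Of 16 tested integrin and focal adhesion genes, the receptors and anchors through which CCN1 and the matrix act on cells, 0 passed in limma and 1 had an unadjusted p under 0.05, with a median log2 fold change of 0.07. ITGA5, the fibronectin receptor chain, was at 4.74, 7.44 and 7.59 FPKM at low altitude, against 1.74, 4.735 and 4.25 at high altitude. Its groups do not overlap, but only just, at 4.7396 against 4.735 FPKM. Its log2 fold change was 0.78 (SE 0.31, limma, Benjamini-Hochberg adjusted p = 0.496), and 0.44 without high altitude library 1. TLN2, ZYX and LIMS1, which tie integrins to actin, overlapped between the groups, with log2 fold changes of 0.29, 0.18 and 0.20. Without high altitude library 2 those of TLN2 and LIMS1 were 0.12 and 0.09, and without high altitude library 1 that of ZYX was 0.00. Of 9 tested genes of SRF, MRTFA and their targets, the other main route from actin tension to transcription, 0 passed and 0 had an unadjusted p under 0.05 in limma, with a median log2 fold change of −0.05. TAGLN, an actin-binding protein of smooth muscle, was at 48.4, 49.0 and 54.5 FPKM at low altitude, against 39.5, 43.6 and 42.9 at high altitude, without overlap. MRTFA, TPM4 and EGR1 overlapped, and SRF itself was at 16.4 to 17.3 FPKM at low and 15.8 to 24.4 at high altitude.

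In TGF beta signalling, which induces CCN2 and is activated by thrombospondin 1, 0 of 14 tested genes passed in limma and 3 had an unadjusted p under 0.05, with a median log2 fold change of 0.19. TGFBR1, a receptor chain, was at 1.05, 1.54 and 1.12 FPKM against 0.893, 0.620 and 0.756, and SMAD3, a signal carrier, at 5.49, 5.76 and 7.72 FPKM against 4.06, 4.69 and 5.06, both without overlap. TGFBR1 had an unadjusted p under 0.05, while SMAD3 did not (limma, unadjusted p = 0.0514). SMAD6, an inhibitor of the related BMP signal, was lower at low altitude, at 0.841, 0.439 and 0.610 FPKM against 1.23, 1.20 and 1.72 (limma, Benjamini-Hochberg adjusted p = 0.345). TGFBR1 passed the FPKM filter only through the low altitude group and SMAD6 only through the high altitude group, in each case the higher one.

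Immediate early genes had the highest median of the lists. Of 12 tested genes 1 passed in limma with Benjamini-Hochberg adjustment, 9 had an unadjusted p under 0.05, all 12 had estimates above 0, and the median log2 fold change was 0.85, beside 0.041 over all tested genes. In 8 of the 12 every low altitude library lay above every high altitude one, where 11.3% of all tested genes showed this. Since the list was chosen with earlier results known, these counts are a description. NR4A2, an orphan nuclear receptor, rose to 9.52, 10.6 and 7.91 FPKM at low altitude, against 0.437, 0.653 and 0.635 at high altitude. FOS, a subunit of AP-1, was at 64.6, 38.1 and 52.2 FPKM against 17.7, 6.08 and 4.0, and its highest and lowest low altitude animals were the same as for CCN1. MYC was at 4.34, 5.93 and 5.17 FPKM against 2.70, 2.68 and 2.61, and KLF4 at 11.5, 8.09 and 10.3 against 4.03, 6.17 and 4.47. The adjusted p of FOS, MYC and KLF4 in limma with Benjamini-Hochberg adjustment was 0.147, 0.155 and 0.208, and FOS passed when high altitude library 1 was left out (3.11 on the log2 scale, adjusted p = 0.0187).

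The gene whose profile lay closest to that of CCN1 was FOS. Likeness was the root mean square difference of log2(FPKM + 1), centred on each gene's mean, over the 6 libraries, among the 6718 other tested genes with a symbol. FOS (0.405) was followed by RASGEF1B (0.440), PER1 (0.569), SPIDR (0.573) and ARRDC3 (0.575). RASGEF1B, an exchange factor for small GTPases, was at 12.4, 8.17 and 13.1 FPKM at low altitude, against 3.33, 1.42 and 1.09 at high altitude. ARRDC3, an alpha-arrestin, was at 40.5, 29.2 and 40.4 FPKM against 6.86, 4.84 and 12.0. PER1, a clock repressor that is also induced early by many signals, was at 43.7, 51.0 and 67.9 FPKM against 6.76, 4.94 and 7.45, and SPIDR, a DNA repair scaffold, at 9.98, 4.50 and 11.5 against 2.24, 0.782 and 2.13. These 5 genes were picked from 6 libraries for being like CCN1, so their likeness is a description. Of the members, THBS1 ranked 25th (0.866), while CCN2 ranked 1596th (1.38), WWTR1 4781st (1.52) and CSRP3 6709th (2.56) of 6718.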

How the data were processed

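Total RNA of frozen muscle was made into strand-specific dUTP libraries, per the labels' protocols. The authors deposited FPKM values in 1 table, and TopHat2 2.0.11 and Cufflinks 2.2.1 are named with no role, per the submitters' processing notes. Build, annotation and filters: not given in the sources used here. For that reason coordinates are left out. FPKM holds no counts, so no count test was run and no counting interval is given. Relative depth was read from ratios of FPKM below 0.15 between libraries.

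Columns were matched to animals by title. Gene names came from a table of IDs and symbols, which named 11804 of 25322 IDs and 6719 of 10005 tested genes. Values were analysed as log2(FPKM + 1) with limma 3.58.1 in R 4.3.3, low minus high altitude, with a mean-variance trend, two-sided, at an adjusted p of 0.05 by Benjamini-Hochberg over every tested gene. The procedure was tested on simulated data. The members and lists were chosen with earlier results of these data known. Lists are described by counts and medians, with no set test. Reads shared between close copies, such as troponin or thrombospondin genes, cannot be checked. Named genes were the members, up to 4 genes per list by unadjusted p and any past the threshold, the 5 profiles closest to CCN1 and the first 2 genes of each marker list, such as ACTA1. ANKRD23, CCN4, CCN6, SRF, NR4A3 and the low CSF1R were named outside that rule, after their values were seen. So were the marker genes MYL1, MYL3, TNNC1, TNNI1, TNNT1, FBLN1, COL3A1, DCN and KDR. The 17 alternatives were 2 other pseudocounts (0.1 and 0.5), no filter, a mean FPKM of at least 5, 3 scalings (common total, median of ratios, quantile), 3 variance models (no trend, robust, array weights), the replicate block and leaving out each of 6 libraries. The values of 1 gene of the TGF beta list are not reported here. Plots used matplotlib 3.10.9 and Python 3.11.15.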

Additional observations from a re-analysis of the deposited data

How the results depend on the processing

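The fold changes of CCN1 and THBS1 kept their sign in all 17 alternatives run, between 2.35 and 3.02 and between 1.10 and 1.82, and THBS1 passed the threshold in none (limma, adjusted p 0.168 to 0.675). For CCN1 the adjusted p ran from 0.0110 to 0.266, so its call depends on the setting. The count of members past the threshold was 0 in the reported analysis and 1 (CCN1) with a common total, with array weights and with the replicate block. The count over all genes, 23, was 6 with no filter, 38 with array weights, 10 after quantile normalization and 9 after median-of-ratios scaling, and ran from 4 (without high altitude library 3 or low altitude library 3) to 21 when 1 library was left out. Among the other pathway genes 1 passed, 2 with array weights (NR4A2 and FOS), and 0 with a mean FPKM of at least 5, which removes NR4A2. Leaving out 1 library gave 1 to 2, the second being FOS without high altitude library 1 or TGFB2 without low altitude library 2. MAP4K4 turned to −0.04 without high altitude library 1 and ran up to 0.45 without another, and THBS4 turned to −0.02 without high altitude library 2 and ran up to 0.55. The cause of these shifts was not tested.

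Libraries of the 2 groups share replicate numbers, but same-numbered libraries did not deviate together (correlations of −0.0154, 0.0949 and −0.141 across genes), so the numbers are not taken as pairs. With the replicate block 19 genes passed over all genes, 1 member (CCN1) and 2 other pathway genes (NR4A2 and NR4A3). With 3 animals a group and unknown depth, the members with small estimates, CCN2, CCN3 and WWTR1, are not shown to be equal between the groups.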
